A study of Mus musculus with 6 samples.

Results

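Enzymes and transporters of drug and xenobiotic metabolism were described here in the livers of 3 male mice. The members were the array spots annotated with a single gene symbol of the cytochrome P450 (Cyp), alcohol dehydrogenase (Adh), aldehyde dehydrogenase (Aldh), aldo-keto reductase (Akr), flavin monooxygenase (Fmo), epoxide hydrolase (Ephx), quinone reductase (Nqo), glutathione transferase (Gst), glucuronosyltransferase (Ugt), sulfotransferase (Sult) or Abcc transporter families. Of 16896 spots, 9663 had a single symbol, and 43 of these, for 36 genes of 7151, were members. Total RNA of each liver was hybridised to 2 kinds of array, A and B, that carry different spots, with 1 mouse in each group. The groups were a calorie-restricted mouse killed at 177 days, a mouse fed ad libitum killed at 174 days and a mouse fed ad libitum killed at 17 days, which the labels place in the 2nd, 2nd and 1st age group. The age of 17 days and its unit rest on the label alone and could not be checked here. Strain, genotype and the length of the calorie restriction are not given in the sources used here. With 1 mouse per group there was no replicate and no test, so every difference describes these mice only, and age or diet cannot be told apart from differences between single animals or arrays.

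The liver clears foreign and many endogenous lipophilic compounds in steps. Phase 1 enzymes oxidise, reduce or hydrolyse a compound, phase 2 enzymes couple it to a water-soluble group such as glutathione, and transport proteins of the Abcc family export the conjugates. Many of these enzymes also handle steroids, bile acids, retinoids and aldehydes, and several are induced by foreign compounds through the aryl hydrocarbon receptor or through Nfe2l2, the regulator of antioxidant response genes.

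Of the 43 spots, 30 belonged to 26 phase 1 genes (8 Cyp, 10 Aldh, 5 Akr, 2 Ephx and 1 Adh), 11 to 8 phase 2 genes, all glutathione transferases, and 2 to the transporters Abcc1 and Abcc3. No spot named here matched the Ugt, Sult, Fmo or Nqo families. A spot entered the comparisons where its level, averaged over the mice, exceeded the 50th percentile of all spots on that kind of array, so a high value in 1 mouse could let a spot in. This left 22 member spots for 18 genes, 13 of phase 1 and 5 of phase 2, and neither transporter. A gene took the median log2 difference of its entering spots, and 15 of the 18 genes had 1 such spot. Genes of these families have close copies that can bind the same spot, so a value named for 1 family member may hold signal of another. The 5 mu class genes Gstm1, Gstm2, Gstm5, Gstm6 and Gstm7 are close neighbours in the mouse annotation (GRCm38.p6), with at most 4 protein-coding genes between any pair of them.

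The median spot intensity of the ad libitum 174-day liver was lower on both array kinds, at 375 in the calorie-restricted liver, 35.8 in the 174-day liver and 364.3 in the 17-day liver on array A, and at 332.8, 60.8 and 402.5 in the same mice on array B. Intensities are in arbitrary units, and levels below are quantile-normalized log2 intensities unless raw intensity is named. Of the member spots, 0 read exactly 10, a value shared by many other spots, and 0 were set apart in 1 mouse by 1.5 log2 or more. The array A spot of Akr1b10 lay at or below the 5th percentile of the array in the 174-day liver, and 0 member spots did so in the other mice. The hepatocyte marker Alb, which encodes albumin, was bright in all 3 livers, with raw intensities of 29199 in the calorie-restricted liver, 3089 in the 174-day liver and 25108 in the 17-day liver.

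Most entering members lay within 0.5 log2 in each comparison, as did most of all entering genes. Against the 17-day liver, 14 of the 18 genes in the 174-day liver lay within 0.5 log2 (77.8%, against 86.8% of all 3865 entering genes). The same number lay within 0.5 log2 in the calorie-restricted liver against the 17-day liver (77.8%, against 77.2% of all genes). Between the calorie-restricted and the 174-day liver 13 did (72.2%, against 64.1% of all genes). The median over the 18 genes was -0.08 for the 174-day against the 17-day liver, 0.05 for the calorie-restricted against the 174-day liver and 0.0002 for the calorie-restricted against the 17-day liver, beside medians of -0.03, -0.04 and -0.09 over all genes. In the main setting 3 entering members, Gstp1, Cyp2s1 and Cyp11a1, were at least 2-fold apart in at least 1 comparison. The shares of all entering genes are given beside them below. The plot of levels by spot gives all 43 member spots in the 3 livers.

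**Figure D1:**
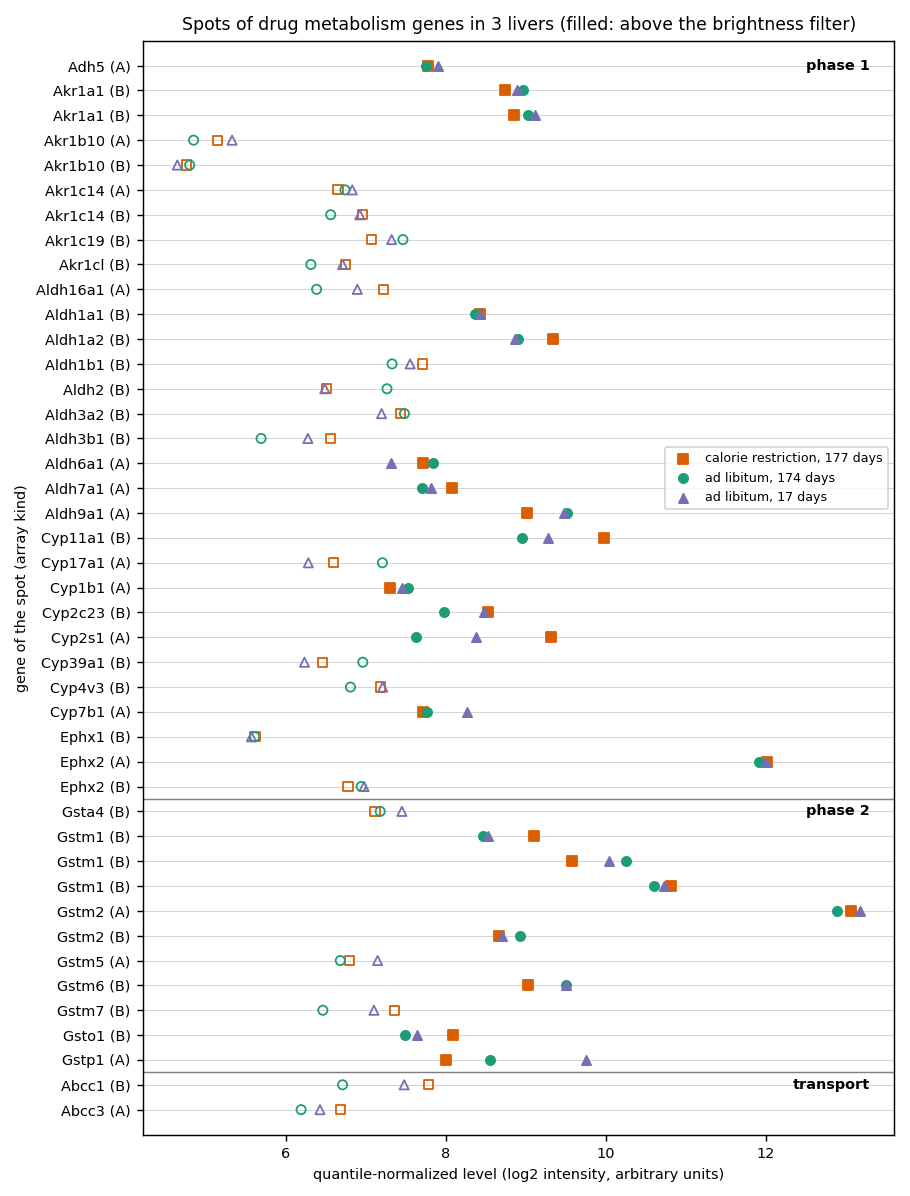
Quantile-normalized level (log2 intensity, arbitrary units) of each of the 43 member spots, 1 row per spot with its gene and array kind; orange squares are the calorie-restricted 177-day mouse, green circles the ad libitum 174-day mouse and purple triangles the ad libitum 17-day mouse, and filled symbols mark the 22 spots above the brightness filter. Levels are comparable along a row only. The 3 symbols are farthest apart in the rows of Gstp1, where the calorie-restricted mouse is lowest, and Cyp2s1, where it is highest.

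Cytochromes P450 are haem enzymes that insert oxygen into their substrates. Of the 8 with a spot, 5 entered, and 4 of these 5 were below 0 in the 174-day against the 17-day liver, with a median of -0.49, where 2067 of all 3865 entering genes were below 0. Without the brightness filter 5 of the 8 were below 0, with a median of -0.37. Cyp2s1, a P450 known mainly from epithelia outside the liver and inducible through the aryl hydrocarbon receptor, had a raw intensity of 1378 in the calorie-restricted liver, 41.6 in the 174-day liver and 698 in the 17-day liver. As a multiple of the array's median these were 3.68, 1.16 and 1.92, so the spot stood highest in the calorie-restricted liver and lowest in the 174-day liver. The calorie-restricted liver was 1.69 log2 (3.22-fold) above the 174-day liver, the 4th highest difference of 3865 genes. The 174-day liver was at -0.76 against the 17-day liver, and the calorie-restricted liver was at 0.93 against it.

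Cyp11a1, the mitochondrial enzyme that makes pregnenolone from cholesterol and is known from adrenal and gonad, read 1431 in the calorie-restricted liver, 162.7 in the 174-day liver and 1191 in the 17-day liver. The order of the mice was that of Cyp2s1, with 4.3, 2.68 and 2.96 times the array median. The calorie-restricted liver was 1.03 log2 (2.05-fold) above the 174-day liver and 0.70 above the 17-day liver, and the 174-day liver was at -0.33 against the 17-day liver. In all, 2 of the 18 entering members were at least 2-fold higher in the calorie-restricted than in the 174-day liver, where 2.25% of all entering genes were. None of the 18 was at least 2-fold lower, where 4.61% of all entering genes were.

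Spot position moved with both of these differences. The spots at the same place in the other blocks of consecutive spots had a median difference of 0.73 log2 between the calorie-restricted and the 174-day liver for Cyp2s1 and of 0.44 for Cyp11a1. After removal of the median deviation by block and place, Cyp2s1 was at 0.996 and Cyp11a1 at 0.40, both below 2-fold, and the part of spot position in the differences was not tested further. With median centring in place of quantile normalization Cyp2s1 was at 1.66 and Cyp11a1 at 0.68.

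The other entering P450 genes were less than 2-fold apart. Cyp2c23, whose rat counterpart is an arachidonic acid epoxygenase, read 580.5, 77.3 and 711.4 in the calorie-restricted, 174-day and 17-day mice and was at 0.55 in the calorie-restricted against the 174-day liver, at -0.51 in the 174-day against the 17-day liver and at 0.05 in the calorie-restricted against the 17-day liver. Cyp7b1, an oxysterol hydroxylase of bile acid synthesis, read 472 in the calorie-restricted liver, 46.1 in the 174-day liver and 646.3 in the 17-day liver. It was lower than in the 17-day liver in both older mice, at -0.54 in the calorie-restricted and -0.49 in the 174-day liver, which share that 17-day control. The correction for position put these at -0.22 and -0.35. Cyp1b1, which oxidises polycyclic hydrocarbons and oestrogens and is a target of the aryl hydrocarbon receptor, lay between -0.23 and 0.08 in the 3 comparisons.

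The 3 dimmer P450 genes took opposite directions. Cyp17a1, of androgen synthesis, was at 0.93 and Cyp39a1, an oxysterol hydroxylase, at 0.73 in the 174-day against the 17-day liver. Cyp4v3, a fatty acid hydroxylase, was at -0.40 there. In the calorie-restricted against the 174-day liver Cyp17a1 was at -0.61, Cyp39a1 at -0.50 and Cyp4v3 at 0.37. After the correction for position Cyp39a1 was at -1.03 and Cyp4v3 at 0.0004 there.

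**Figure D2:**
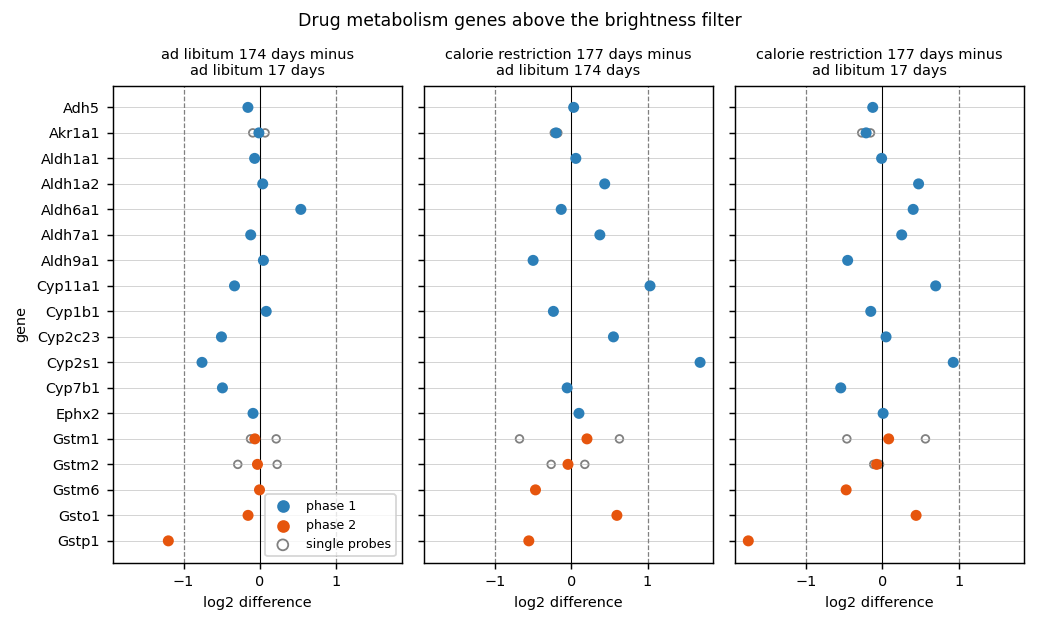
Log2 difference of each of the 18 member genes with an entering spot, in 3 panels for the 174-day against the 17-day ad libitum mouse, the calorie-restricted 177-day against the ad libitum 174-day mouse and the calorie-restricted against the 17-day mouse; filled points are genes (blue, phase 1; orange, phase 2), open points the single spots of genes with several, and dashed lines 2-fold. Gstp1 lies beyond the 2-fold line in the left and right panels, at -1.20 and -1.76, and Cyp2s1 (1.69) and Cyp11a1 (1.03) in the middle panel.

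Aldehyde dehydrogenases oxidise aldehydes of food, lipid peroxidation, retinoid and amino acid metabolism to acids. All 10 genes had 1 spot each, 5 entered, and none was at least 2-fold apart in any comparison. Of all entering genes at most 4.61% were so in 1 direction of a comparison, and the share over all comparisons together is not given here. Aldh1a1 and Aldh1a2 both make retinoic acid from retinal. Aldh1a1 read 539.9 in the calorie-restricted liver, 104.1 in the 174-day liver and 687 in the 17-day liver and lay between -0.07 and 0.06 in the 3 comparisons. Aldh1a2 read 993.7, 156.8 and 907.9 in the same mice and was 0.44 above the 174-day and 0.47 above the 17-day liver in the calorie-restricted liver.

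Aldh6a1, an enzyme of valine breakdown, read 470.5 in the calorie-restricted liver, 48.7 in the 174-day liver and 342.8 in the 17-day liver. Against the 17-day liver it was at 0.40 in the calorie-restricted and at 0.53 in the 174-day liver, and both differences rest on the same 17-day value. The spot lay at percentile 57.0 of its array in the calorie-restricted liver, 59.8 in the 174-day liver and 47.8 in the 17-day liver. Its entry thus rested on the mice where it was higher. Aldh7a1, of lysine breakdown, was at 0.38 in the calorie-restricted against the 174-day liver and at -0.12 in the 174-day against the 17-day liver. Aldh9a1, of carnitine synthesis, was at -0.50 in the calorie-restricted against the 174-day liver, at 0.04 in the 174-day against the 17-day liver and at -0.45 in the calorie-restricted against the 17-day liver. The correction for position put these at -0.24, 0.11 and -0.12.

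Among the dimmer aldehyde dehydrogenases, the spot of Aldh2, the mitochondrial enzyme that clears acetaldehyde, read 151.7 in the calorie-restricted liver, 45.7 in the 174-day liver and 182.1 in the 17-day liver. It was at 0.78 in the 174-day against the 17-day liver and at -0.75 in the calorie-restricted against the 174-day liver, the highest and the lowest of the family. The correction for position put these at 0.21 and -0.16. Aldh3b1 (-0.58) and Aldh16a1 (-0.51) were lower in the 174-day liver than in the 17-day liver and, at 0.87 and 0.83, higher in the calorie-restricted than in the 174-day liver. Aldh3a2, which oxidises fatty aldehydes, lay between -0.05 and 0.29 in the 3 comparisons, and the mitochondrial Aldh1b1 between -0.23 and 0.38.

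In the main setting the member spots of the other phase 1 families lay within 0.5 log2 in each comparison. Adh5, the glutathione-dependent formaldehyde dehydrogenase, read 491.1 in the calorie-restricted liver, 45.3 in the 174-day liver and 506.3 in the 17-day liver and lay between -0.16 and 0.03. Akr1a1, an aldehyde reductase that serves ascorbate synthesis in mice, had 2 entering spots on array B. They were at -0.22 and -0.18 in the calorie-restricted against the 174-day liver, and at -0.16 and -0.27 in the calorie-restricted against the 17-day liver. In the 174-day against the 17-day liver they were on either side of 0, at 0.07 and -0.10. After the correction for position they were at -0.025 and 0.20 in the calorie-restricted against the 174-day liver. Against the 17-day liver they were then at -0.13 and -0.16 in the calorie-restricted and at -0.10 and -0.36 in the 174-day liver. The dimmer aldo-keto reductases Akr1b10, Akr1c14, Akr1c19 and Akr1cl had 6 spots, which lay from -0.48 to 0.15 in the 174-day against the 17-day liver. The lowest was the array A spot of Akr1b10, at or below the array's 5th percentile in the 174-day liver, and the highest its array B spot. In the calorie-restricted against the 174-day liver the 6 spots lay from -0.39 to 0.43. The spot annotated to both Akr1c12 and Akr1c13, outside the members, was at -1.38 there and is described at the end. Ephx2, the soluble epoxide hydrolase, read 6264 in the calorie-restricted liver, 1195 in the 174-day liver and 8660 in the 17-day liver on array A. Its differences lay between -0.09 and 0.10, but with median centring they were 0.49 for the 174-day against the 17-day liver and -0.999 for the calorie-restricted against the 174-day liver. The dimmer array B spot of Ephx2 lay between -0.20 and -0.04, and the spot of Ephx1, the microsomal epoxide hydrolase, between 0.004 and 0.04.

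Glutathione transferases couple glutathione to electrophiles. Gstp1, of the pi class, is described first, with the promoter sequence of its gene and that of Cyp2s1, the members farthest apart. Gstp1 had 1 spot, on array A, that read 564.5 in the calorie-restricted liver, 82.9 in the 174-day liver and 1647 in the 17-day liver. As a multiple of the array median these were 1.51, 2.31 and 4.52, so the level was lowest in the calorie-restricted and highest in the 17-day liver. The calorie-restricted liver was at -1.76 log2 (3.38-fold lower) against the 17-day liver, the 5th lowest difference of 3865 genes. The 174-day liver was at -1.20 (2.3-fold lower) against the 17-day liver, the 7th lowest, and the calorie-restricted liver was at -0.55 against the 174-day liver.

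Gstp1 was the 1 of 18 entering members that was at least 2-fold lower in the 174-day liver than in the 17-day liver, where 0.44% of all entering genes were, and the 1 of 18 in the calorie-restricted against the 17-day liver, where 1.11% were. None of the 18 was at least 2-fold higher in the 174-day against the 17-day liver (0.724% of all entering genes) or in the calorie-restricted against the 17-day liver (0.466%). Both comparisons used the same 17-day arrays. After the correction for position Gstp1 was at -1.07 in the 174-day and -1.13 in the calorie-restricted liver against the 17-day liver, and at -0.06 between the calorie-restricted and the 174-day liver. With median centring it was at -0.97 in the 174-day liver, below 2-fold, and at -1.59 in the calorie-restricted liver. The spot stands for a gene with near-identical copies in the mouse genome, which it may not tell apart.

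The promoters are given from RefSeq (GRCm38.p6), from 250 bases before to 50 after the start of the gene, 5′ to 3′ on the gene's strand. That of Gstp1 lies at chr19:4037863-4038162 on the minus strand and that of Cyp2s1 at chr7:25816476-25816775 on the minus strand. Capitals mark matches on either strand to GCGTG, the core of the xenobiotic response element bound by the aryl hydrocarbon receptor, or to TGACNNNGC, the core of the antioxidant response element.
Gstp1: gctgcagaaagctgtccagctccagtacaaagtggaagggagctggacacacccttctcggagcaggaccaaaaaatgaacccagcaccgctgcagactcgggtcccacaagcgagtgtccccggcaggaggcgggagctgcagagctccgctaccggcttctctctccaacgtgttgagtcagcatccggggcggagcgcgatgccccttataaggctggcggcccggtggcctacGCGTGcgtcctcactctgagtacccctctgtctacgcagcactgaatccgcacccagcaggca
Cyp2s1: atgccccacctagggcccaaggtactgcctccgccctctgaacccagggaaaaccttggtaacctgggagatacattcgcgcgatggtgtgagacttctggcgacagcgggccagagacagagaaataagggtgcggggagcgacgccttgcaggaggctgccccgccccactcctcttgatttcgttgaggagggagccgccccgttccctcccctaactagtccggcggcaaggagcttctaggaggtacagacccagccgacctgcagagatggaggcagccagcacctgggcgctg
The window of Gstp1 held GCGTG once, with its first base 13 bases before the start, and the letters of neither motif were found in the window of Cyp2s1. Of the 36 member genes, 26 had promoters in the table, 34 in all. GCGTG was in 35.3% of them, against 32.4% of all 32851 promoters, and TGACNNNGC in 17.6%, against 12.4%. Only these exact letters were searched. A stretch that differs from TGACNNNGC by a single base, such as tgagtcagc in the window of Gstp1, was not marked or counted. These matches are a description of the letters only.

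Of the mu class, the entering genes Gstm1, Gstm2 and Gstm6 lay between -0.07 and -0.01 in the 174-day against the 17-day liver. The 3 entering spots of Gstm1 were at -0.12, 0.21 and -0.07 there. In the calorie-restricted against the 174-day liver they were at 0.21, -0.68 and 0.63, with raw intensities of 2216, 1138 and 853.3 in the calorie-restricted liver and of 633, 469.6 and 112.7 in the 174-day liver. With median centring these were -0.64, -1.18 and 0.47, so the spots took opposite directions under both scalings, but not the same spots. Gstm2 read 13560 in the calorie-restricted liver, 2434 in the 174-day liver and 18684 in the 17-day liver on array A, and 632.8, 159.5 and 811.4 on array B. Its 2 spots were at -0.29 and 0.22 in the 174-day against the 17-day liver and at 0.18 and -0.26 in the calorie-restricted against the 174-day liver. With median centring both were below 0 in the calorie-restricted against the 174-day liver, at -0.91 and -0.46, and both above 0 in the 174-day against the 17-day liver, at 0.41 and 0.38. The correction for position gave the reverse. It put both spots above 0 in the calorie-restricted against the 174-day liver, at 0.35 and 0.45. In the 174-day against the 17-day liver it put both below 0, at -0.51 and -0.09. Across all genes with several entering spots, the pooled SD between spots of the same gene was 0.45 log2 for the 174-day against the 17-day liver, 0.58 for the calorie-restricted against the 174-day liver and 0.40 for the calorie-restricted against the 17-day liver (557 genes). This is a spread between spots, not between animals.

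Gstm6 read 815.3 in the calorie-restricted liver, 252.1 in the 174-day liver and 1372 in the 17-day liver. It was at -0.47 in the calorie-restricted liver against either ad libitum mouse and at -0.01 in the 174-day against the 17-day liver, and after the correction for position at -0.02, -0.002 and 0.02. The dimmer Gstm5 and Gstm7 were at -0.47 and -0.64 in the 174-day against the 17-day liver and at 0.12 and 0.89 in the calorie-restricted against the 174-day liver. The correction for position put Gstm5 at -0.57 and 0.15 and Gstm7 at -0.31 and 0.45 in the same comparisons.

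Gsto1, an omega class enzyme with thiol transferase activity, read 438.2 in the calorie-restricted liver, 53.8 in the 174-day liver and 400.5 in the 17-day liver. The calorie-restricted liver was 0.60 above the 174-day and 0.44 above the 17-day liver. The spot lay at percentile 58.4 of its array in the calorie-restricted liver, 46.7 in the 174-day liver and 49.8 in the 17-day liver. Its entry thus rested on the mouse where it was highest, so the filter favoured these differences. The other spots at its place in the blocks had a median of 0.58 in the calorie-restricted against the 174-day liver, and after the correction Gsto1 was at 0.08 there. Gsta4, an alpha class enzyme that conjugates aldehydes of lipid peroxidation, was below the brightness filter and lay between -0.34 and -0.07 in the 3 comparisons. All 8 glutathione transferase genes were below 0 in the 174-day against the 17-day liver without the brightness filter, with a median of -0.21, where 3596 of all 7151 genes were. With median centring, which put the median of all entering genes at 0.21, Gstm1, Gstm2 and Gstm6 were above 0, and Gstm6 was also above 0 after loess (0.01) and after the correction for position (0.02), as was Gstm1 among the top 25% of spots (0.04).

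**Figure D3:**
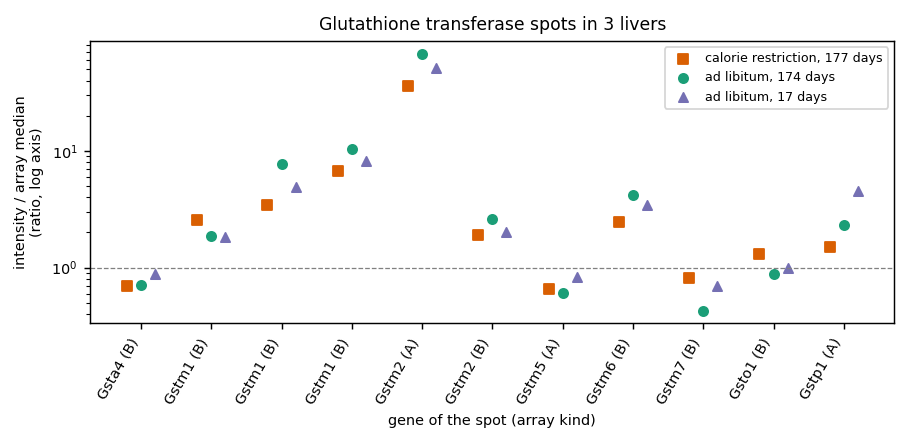
Raw intensity of each glutathione transferase spot divided by the median of its array (ratio, log axis), with the gene and array kind of each spot below; orange squares are the calorie-restricted 177-day mouse, green circles the ad libitum 174-day mouse and purple triangles the ad libitum 17-day mouse, and the dashed line marks the array median. The Gstp1 spot runs 1.51, 2.31 and 4.52 in that order of mice, while the 3 Gstm1 spots do not share one order.

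Abcc1 and Abcc3, which export glutathione and glucuronide conjugates from cells, were both below the brightness filter. Abcc1 read 360.3 in the calorie-restricted liver, 31.2 in the 174-day liver and 359.8 in the 17-day liver, and Abcc3 read 228.8, 15.2 and 184.1 in the same mice. Both were lowest in the 174-day liver after normalization. Abcc1 was at 1.07 and Abcc3 at 0.50 in the calorie-restricted against the 174-day liver, and at -0.77 and -0.24 in the 174-day against the 17-day liver. After the correction for position Abcc1 was at 0.79 in the calorie-restricted against the 174-day liver and at -0.46 in the 174-day against the 17-day liver. Abcc3 was then at 0.50 and -0.30 in the same comparisons. Without the brightness filter, 3 of the 36 member genes (Cyp2s1, Cyp11a1 and Abcc1) were thus at least 2-fold apart between the calorie-restricted and the 174-day liver, where 7.44% of all 7151 genes were. In both other comparisons it was 1 of 36, Gstp1, where 3.22% of all genes were in the 174-day against the 17-day liver and 1.13% in the calorie-restricted against the 17-day liver.

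**Figure D4:**
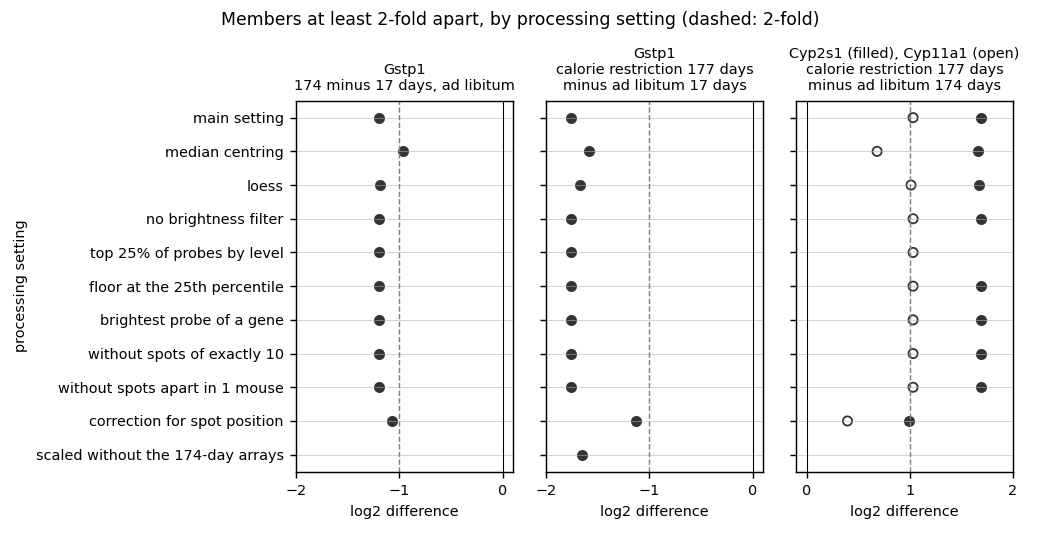
Log2 difference of Gstp1 (174-day against 17-day ad libitum mouse, left; calorie-restricted against 17-day mouse, middle) and of Cyp2s1 (filled) and Cyp11a1 (open) in the calorie-restricted against the 174-day mouse (right), with 1 row per processing setting; the dashed line is 2-fold, and a missing point means the setting gave no value. Gstp1 stays beyond 2-fold in the middle panel in all rows, whereas Cyp2s1 and Cyp11a1 move to 0.996 and 0.40 with the correction for spot position.

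Other genes of the same pathways were taken from lists of regulators and electron donors, other conjugation enzymes, other phase 1 enzymes and other hepatic transporters. Of 83 listed genes, 28 had a spot and 19 entered, and 0 of these was at least 2-fold apart in any comparison. Per comparison and direction, the share among all entering genes ran from 0.44% to 4.61%. The share at least 2-fold apart in any comparison, which cannot be lower than the highest of these, is not given here. A count of 0 among 19 genes does not set the lists apart from other genes. In the 174-day against the 17-day liver the list medians were -0.001 for regulators and electron donors, -0.14 for conjugation, -0.07 for other phase 1 enzymes and -0.43 for transporters, of which 2 entered. In the calorie-restricted against the 174-day liver they were -0.03, 0.01, 0.08 and 0.08 in that order of lists. Among the regulators, Nfe2l2 was at 0.19 in the 174-day against the 17-day liver and 0.10 in the calorie-restricted against the 174-day liver. Arnt, the partner of the aryl hydrocarbon receptor, was at -0.20 and -0.58 in the same comparisons and at -0.77 in the calorie-restricted against the 17-day liver, with a dimmer spot that put the gene at -0.42 there. Electron donors of the P450 system were at 0.24 (Cyb5a), 0.30 (Cyb5b) and -0.26 (Cyb5r3) in the 174-day against the 17-day liver and at -0.16, -0.46 and 0.36 in the calorie-restricted against the 174-day liver. With spot position corrected, Cyb5a, Cyb5b and Cyb5r3 were at 0.06, -0.04 and 0.13 in the 174-day against the 17-day liver and at 0.05, 0.11 and -0.27 in the calorie-restricted against the 174-day liver, so most of these directions turned. Nfe2l2 was then at -0.21 in the calorie-restricted against the 174-day liver, while Arnt stayed at -0.51. The nuclear receptor coactivator Ncoa1 was at -0.33 in the 174-day against the 17-day liver and 0.37 in the calorie-restricted against the 174-day liver.

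Ugp2, which makes UDP-glucose for glucuronidation, was at -0.44 in the 174-day against the 17-day liver and 0.62 in the calorie-restricted against the 174-day liver, and the glutathione synthetase Gss at -0.32 and 0.22. Papss1, which makes the sulfate donor, was at 0.06 and -0.20, and the microsomal glutathione transferase Mgst1 at 0.04 and -0.27. With spot position corrected, Papss1 was at -0.41 and 0.30, Gss at 0.03 and 0.02 and Ugp2 at -0.55 and 0.92 in the same comparisons. The carboxylesterases Ces1d and Ces1f, which hydrolyse esters, were at 0.66 and 0.41 in the calorie-restricted against the 174-day liver, while the aldehyde oxidase Aox3 was at -0.32. The retinal reductase Dhrs3 was at 0.48, the monoamine oxidase Maoa at -0.31 and the lactonase Pon3 at -0.24 there. With spot position corrected, Ces1d was at 0.14, Ces1f at 0.63, Aox3 at 0.14 and Dhrs3 at 0.30 in that comparison. The carbonyl reductase Cbr3 was at 0.34 in the 174-day against the 17-day liver, Aox3 at -0.31, Dhrs3 at -0.25, Maoa at -0.04 and Pon3 at 0.21. Cbr3 was at 0.69 there with spot position corrected. The efflux pump Abcb1b was at -0.41 and the hepatic uptake transporter Slco1b2 at -0.45 in the 174-day against the 17-day liver, and at 0.002 and 0.15 in the calorie-restricted against the 174-day liver. The correction for position put them at -0.07 and -0.22 in the 174-day against the 17-day liver, and at -0.29 and 0.11 in the calorie-restricted against the 174-day liver.

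Lists of cell type markers were set beside these values, since in whole liver a lower share of a cell type and less RNA per cell cannot be told apart. Of the hepatocyte markers with an entering spot, Alb was at 1.18, Apoa1 at -0.01 and Ttr at 0.26 in the calorie-restricted against the 174-day liver, and at -0.29, 0.07 and -0.10 in the 174-day against the 17-day liver. After the correction for position Alb was at 0.55 in the calorie-restricted against the 174-day liver. The summed raw intensity of the hepatocyte markers was 42281 in the calorie-restricted liver, 5521 in the 174-day liver and 41815 in the 17-day liver. The normalized median level over the 4 hepatocyte marker spots was 11.86 in the calorie-restricted liver, 11.74 in the 174-day liver and 11.76 in the 17-day liver. The medians of the other lists lay between 7.41 and 8.67 in the calorie-restricted liver, 7.24 and 8.68 in the 174-day liver and 7.32 and 8.89 in the 17-day liver, over 2 spots for Kupffer cells, 3 for cholangiocytes, 7 for stellate cells, 2 for sinusoidal endothelium and 14 for erythroid cells. The largest shift among their entering genes was that of Epcam, a cholangiocyte marker, at -0.72 in the calorie-restricted against the 174-day liver. The part of cell makeup in the differences of the members was not tested.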

How the data were processed

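Spot values of 6 arrays, A and B for each of 3 mice, were used as deposited. The deposited values were read as intensity on a linear scale from the values themselves; what the authors did to make them is not given in the sources used here. Symbols came from GEO's platform annotation. Of the single-symbol spots 9641 matched a RefSeq gene number (GRCm38.p6), and 0 symbols changed. Values under an array's 5th percentile were set to it, log2 was taken, and the 3 arrays of each kind were then quantile-normalized. Spots above the 50th percentile of mean level entered, the median of a gene's entering spots gave its difference, and the threshold was 2-fold (1 log2). With 1 mouse per group no test was made, and that number limits the precision. The spot layout is also not given, so the blocks of spots that the position correction used are inferred. Alternatives were median centring, loess (span 0.3), no filter, the top 25% of spots, the brightest spot of a gene, flooring at the 25th percentile, a 1.5-fold threshold, removal of spots of exactly 10 or apart in 1 mouse, and spot position. Scaling without the 174-day arrays was added after seeing the data. Named genes were the 8 highest and 8 lowest members of each comparison, those at least 2-fold apart or with several entering spots, and the 5 brightest of each group, and of the other lists the 3 highest and 3 lowest, for which all entering genes are given; the dimmer members with their values were added after their values were seen. Members and lists were chosen with earlier results of these data known. The procedure was tested on simulated data. Scripts ran in Python 3.11.15 with statsmodels 0.14.6 for loess, numpy 2.4.6, matplotlib 3.10.9, scipy 1.17.1 and pandas 2.3.3.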

Additional observations from a re-analysis of the deposited data

How the results depend on the processing

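Of 470 recomputed differences of the 18 entering genes, 459 moved by less than the pooled SD between spots of the same gene and 11 by more. No member that was at least 2-fold apart changed direction. Many of the 470 could not move, so the 459 are no measure of stability. No member spot read exactly 10 or was apart in 1 mouse, and 15 of the 18 genes had 1 entering spot. The moves by more all came with median centring or the correction for spot position. The count of members at least 2-fold higher in the calorie-restricted than in the 174-day liver was 2, but 1 with median centring, 1 among the top 25% of spots by level, where Cyp2s1 does not enter, and 0 after the correction for spot position. The count at least 2-fold lower in the 174-day liver than in the 17-day liver was 1, but 0 with median centring and 2 at the 1.5-fold threshold, which also left 2 members higher in the calorie-restricted than in the 17-day liver, against 0. Beyond the number of spots and the threshold, the cause of these changes was not tested. The median over the members ran from -0.16 to 0.04 in the 174-day against the 17-day liver, from -0.24 to 0.11 in the calorie-restricted against the 174-day liver and from -0.19 to 0.08 in the calorie-restricted against the 17-day liver. The phase 2 median in the calorie-restricted against the 174-day liver was -0.04, and -0.64 with median centring, which moved the median of all entering genes there to -0.31, against -0.04. Among all genes 2-fold apart, the share of lower genes in the 174-day against the 17-day liver was 37.8%, 18.7% with median centring, 22.9% after the correction for position and 52.0% without spots apart in 1 mouse. In the calorie-restricted against the 174-day liver it was 67.2%, and 92.5% with median centring. In the calorie-restricted against the 17-day liver it was 70.5%, 82.9% after loess, 90.0% after the correction for position and 82.1% when scaled without the 174-day arrays. The number of all genes 2-fold or more below, in the calorie-restricted against the 174-day liver, was 178, 613 with median centring and 78 after the correction for position, and the number above was 87, 50 and 36. The number higher in the 174-day against the 17-day liver was 28, 61 with median centring and 12 without spots apart in 1 mouse, and the number lower was 17, and 8 after the correction for position. The number higher in the calorie-restricted against the 17-day liver was 18, 12 with median centring, 7 after loess, 7 without the 174-day arrays and 4 after the correction for position. No paired analysis was possible because each group holds 1 mouse. No value was had for the transporters above the brightness filter. The dim arrays of the 174-day liver limit the values of dim spots.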

Other observations

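A pair of spots outside the members carried a symbol of these families together with another symbol. The spot annotated to both Akr1c12 and Akr1c13, aldo-keto reductases of steroid and xenobiotic carbonyls, read 1096 in the calorie-restricted liver, 337.2 in the 174-day liver and 2055 in the 17-day liver. It was at -1.38 log2 in the calorie-restricted against the 174-day liver, at -1.11 in the calorie-restricted against the 17-day liver and at 0.27 in the 174-day against the 17-day liver. The spot annotated to both Aldh9a1 and Slc31a2 was at -0.29 in the calorie-restricted against the 174-day liver, where the single-symbol spot of Aldh9a1 was at -0.50, and at 0.16 in the 174-day against the 17-day liver, where the single-symbol spot was at 0.04.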
